A study of Mus musculus with 10 samples.

Results

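H3K27me3, the trimethylation of histone H3 at lysine 27 that PRC2 deposits on silenced genes, was described here at 9 genes for bHLH transcription factors of the nervous system. The genes were Neurog1, Neurog2, Neurog3, Neurod1, Neurod2, Atoh1, Olig1, Olig2 and Olig3, which are 9 of the 21938 protein-coding genes on the main chromosomes. A peak was assigned to a gene when it overlapped the gene body or a promoter window that began 5 kb before each annotated transcription start site (TSS) and ended 100 bp after it. The mark was measured by CUT&Tag, in which an antibody brings a transposase to the chromatin that carries the mark. The cells were LSK CD48-CD150+ cells from mouse fetal liver at E14.5, the gate for long-term hematopoietic stem cells (LT-HSCs), and were lightly fixed, either from wild-type (WT) embryos or from embryos of a germline knockout (KO) of Nfkbia, the gene for the NF-κB inhibitor IκBα. There were 3 libraries of each genotype, and no treatment was given to either. All cells of the KO embryos lack IκBα, so a difference need not arise within the LT-HSCs, and the study names more embryos than libraries for each genotype, and fewer independent experiments than replicates, so libraries may share an experiment, with no account in the sources used here of how embryos or experiments were divided among libraries. The series lists 10 samples, and the other 4, for IκBα itself, were not analysed here.

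Basic helix-loop-helix factors bind the E-box sequence as dimers with a broadly expressed E protein. The neurogenins and Atoh1 commit progenitors to a neuronal fate, Neurod1 and Neurod2 act later in differentiating neurons, Olig1 and Olig2 act in the ventral neural tube and in the oligodendrocyte lineage, and Olig3 acts in dorsal progenitors. None of these fates is taken by a blood cell, and genes of this kind are classic targets of Polycomb repression outside the nervous system.

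The promoter sequences of 4 of these genes are given first, to show how unlike the DNA of loci with the same mark can be. Not every sequence lay under a peak in each library. Each runs 5′ to 3′ on the strand of the gene over 300 bases, from 250 bases before to 50 after the start site of RefSeq on GRCm38.p6, with CpG dinucleotides in capitals. Neurog1 (chr13:56252131-56252430, minus strand) had the most CpG dinucleotides of the 8 members with a sequence, 32, and its TSS lay under a peak in all 6 libraries. Neurod1 (chr2:79456587-79456886, minus strand) had 26, and its TSS was left between 2 peaks in 2 libraries. Atoh1 (chr6:64728875-64729174, plus strand) had 20 and carried a short peak of nearly constant width. Olig3 (chr10:19356289-19356588, plus strand) had the fewest, 4. The start sites of RefSeq lay 17, 115, 0 and 6 bp from those of GENCODE for the 4 genes, in this order.
Neurog1: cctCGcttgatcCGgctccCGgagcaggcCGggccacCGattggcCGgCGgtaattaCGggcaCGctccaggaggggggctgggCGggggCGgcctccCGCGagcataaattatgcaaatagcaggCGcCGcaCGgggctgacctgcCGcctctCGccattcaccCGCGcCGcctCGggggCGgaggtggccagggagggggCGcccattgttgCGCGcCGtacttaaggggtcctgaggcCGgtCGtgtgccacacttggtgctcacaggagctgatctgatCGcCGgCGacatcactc
Neurod1: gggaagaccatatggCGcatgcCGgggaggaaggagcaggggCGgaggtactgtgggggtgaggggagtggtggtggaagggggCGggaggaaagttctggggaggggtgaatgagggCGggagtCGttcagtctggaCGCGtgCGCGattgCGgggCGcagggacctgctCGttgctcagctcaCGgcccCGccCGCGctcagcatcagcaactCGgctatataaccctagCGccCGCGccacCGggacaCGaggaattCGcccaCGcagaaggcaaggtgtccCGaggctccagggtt
Atoh1: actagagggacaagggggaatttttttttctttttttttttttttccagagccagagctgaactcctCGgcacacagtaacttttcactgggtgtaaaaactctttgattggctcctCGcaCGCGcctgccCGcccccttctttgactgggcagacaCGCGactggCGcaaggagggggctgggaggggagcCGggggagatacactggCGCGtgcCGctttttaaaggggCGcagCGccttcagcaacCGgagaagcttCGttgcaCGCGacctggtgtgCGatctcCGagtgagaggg
Olig3: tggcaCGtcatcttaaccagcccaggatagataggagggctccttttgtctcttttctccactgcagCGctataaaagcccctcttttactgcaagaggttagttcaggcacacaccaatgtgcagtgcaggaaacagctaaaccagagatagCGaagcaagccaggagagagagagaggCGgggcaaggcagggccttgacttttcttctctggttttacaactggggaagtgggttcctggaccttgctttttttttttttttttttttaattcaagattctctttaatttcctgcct

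Peaks had been called in each library on its own as the top 0.5% of enriched blocks, so the number and the width of peaks are relative to each library. The WT libraries held 4160, 6013 and 1047 peaks and the KO libraries 4904, 5157 and 2325, for replicates 1, 2 and 3. Replicates 1 and 2 were sequenced with 75 bp reads and replicate 3 with 50 bp reads in both genotypes. WT replicate 3 stood apart: its median peak had a total signal (the fragment coverage summed over the peak) of 4303, against 10398 to 13972 in the other 5 libraries, and a maximum signal of 6 fragments, against 9 or 10. Promoter calls and covered lengths are therefore also given without it, and signal also in the libraries of 75 bp alone. The promoters and bodies of 10 genes expressed by blood stem cells (Kit, Ptprc, Runx1, Tal1, Lyl1, Gata2, Mecom, Cd34, Procr and Slamf1) were checked for peaks, and 0 of the 10 genes held one in any library. Since 82.5% of all protein-coding genes held none either, this count says little about the cell label, and the mark gives no direct check of it.

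All 9 promoters were called in both WT libraries and both KO libraries of 75 bp, and all 9 were called in KO replicate 3. In WT replicate 3, 2 of 9 were called, Neurog1 and Olig2. Among all protein-coding genes, 10.6% had a promoter peak in WT replicate 1, 12.9% in WT replicate 2, 3.46% in WT replicate 3, 12.9% in KO replicate 1, 12.2% in KO replicate 2 and 8.06% in KO replicate 3. Called in all 3 KO libraries were 9 of 9 members, against 7.12% of all genes, and in all 3 WT libraries 2 of 9, against 3.01%. The 4 libraries of 75 bp shared 9 of 9 members, against 8.53%, and all 6 libraries shared 2 of 9, against 2.65%. The gap between the genotypes in these counts came from the single library WT replicate 3: without it, 9 of 9 members were called in every remaining WT library. A similar loss was seen across the genome, since of the 1871 genes called in all 4 libraries of 75 bp, 74.7% were called in KO replicate 3 and 33.8% in WT replicate 3. No test was made of these counts, because the members were chosen with results of these data known.

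Gene body calls followed the same course. A peak touched the body of all 9 genes in each of the 4 libraries of 75 bp, of 8 in KO replicate 3, where Olig3 was the exception, and of 3 in WT replicate 3, which were the 3 neurogenins. The corresponding shares of all genes were 9.45% in all 4 libraries of 75 bp, 8.52% in KO replicate 3 and 3.92% in WT replicate 3. The TSS itself was under a peak in all 3 WT libraries for 1 of 9 members, against 2.34% of all genes, in all 3 KO libraries for 7 of 9, against 6.26%, and in all 4 libraries of 75 bp for 7 of 9, against 7.1%. Neurog1 was the 1 member with its TSS under a peak in all 6 libraries, against 1.91% of all genes.

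**Figure D1:**
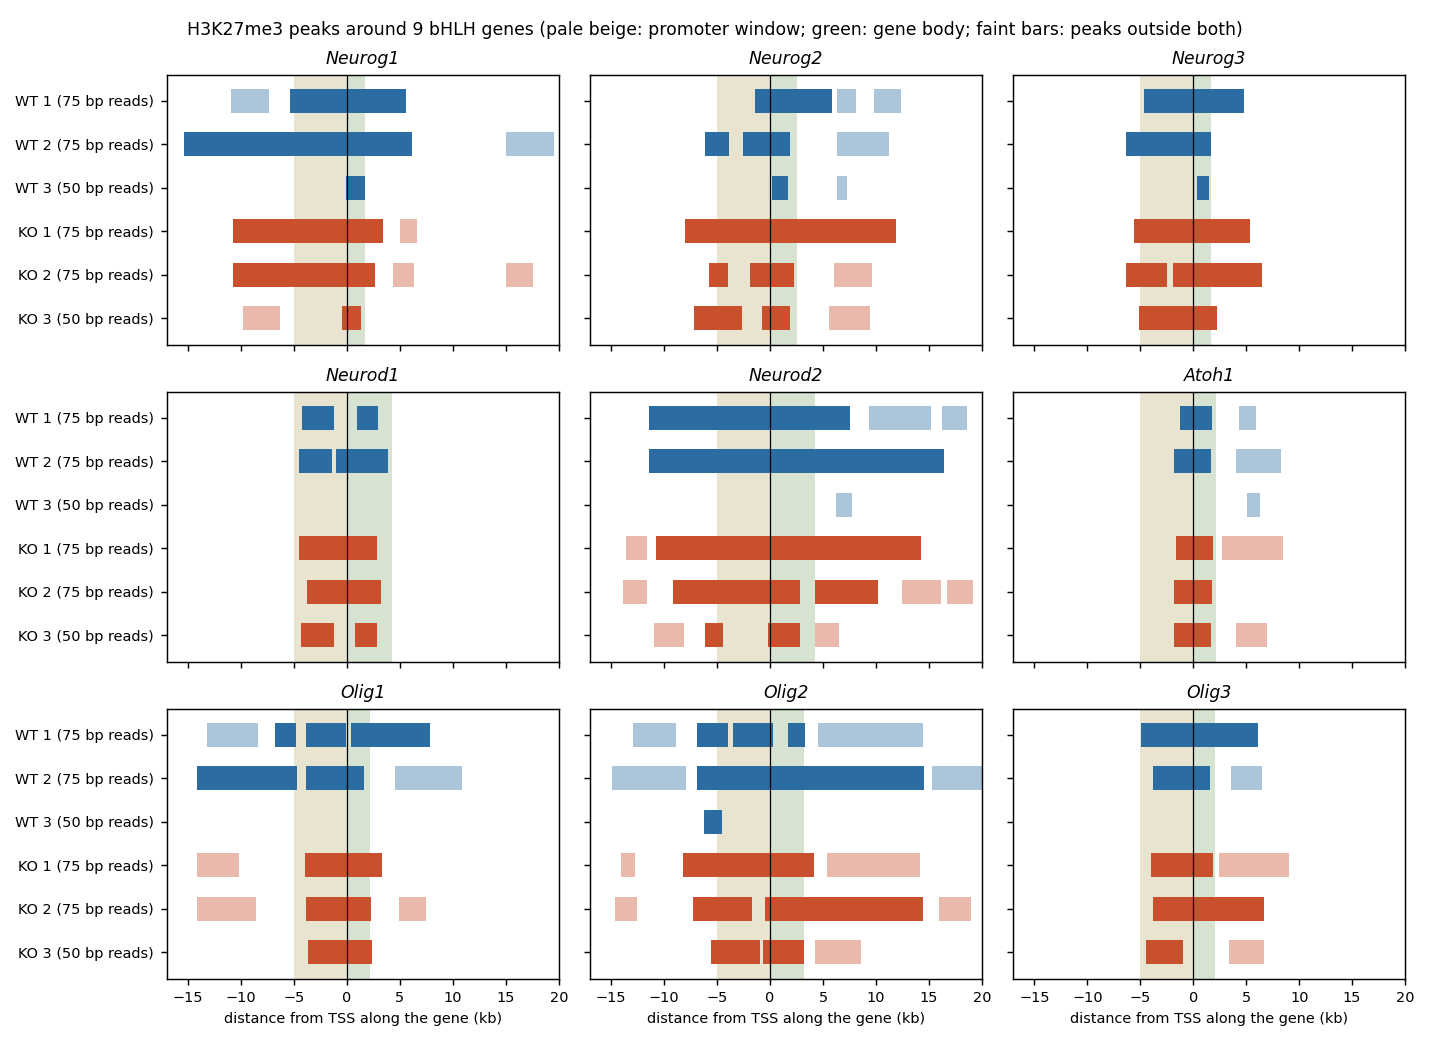
Peaks around each member. The x axis is the distance from the TSS along the gene in kb (negative upstream) and each row is a library, WT in blue and KO in red, with the promoter window shaded beige and the gene body green; faint bars are peaks outside both, shown when they lie within 15 kb of the locus. Atoh1 shows a short block at one place in 5 libraries, Neurod2 a domain of up to 27827 bp, and the row of WT replicate 3 is nearly empty.

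Neurog1 (ENSMUSG00000048904, chr13:56250478-56252163, minus strand), a neurogenin of cranial sensory and spinal neurons, held a single peak at its locus in every library. This peak was 10938, 21516 and 1773 bp wide in WT replicates 1, 2 and 3, against 14201, 13336 and 1792 bp wide in KO replicates 1, 2 and 3. Its total signal was 44094, 95183 and 4744 in WT, against 59825, 54917 and 8151 in KO, and its maximum signal was 10, 17 and 7 fragments in WT, against 11, 12 and 12 in KO. In the replicates of 50 bp this peak was a core over the single exon of the gene, from -45 to 1727 bp of the TSS in WT and from -467 to 1324 bp in KO. Upstream, where the domain reached as far as -15417 bp in WT replicate 2, KO replicate 3 held a separate peak from -9837 to -6277 bp with a total signal of 11111, and WT replicate 1 one from -10980 to -7318 bp with 14404, both outside the promoter window. WT replicate 3 held none there. By total signal, KO replicate 3 placed its core peak at percentile 23.9 of its own peaks and WT replicate 3 at percentile 63.6, whereas the 4 libraries of 75 bp placed theirs between percentiles 96.0 and 99.5.

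Neurog2 (ENSMUSG00000027967, chr3:127633135-127635631, plus strand), which drives glutamatergic neurons of the cortex and spinal cord, was marked in pieces. The peak over the gene was 7320, 4441 and 1494 bp in WT, against 19927, 4123 and 2679 bp in KO, for replicates 1, 2 and 3. The total signal summed over the peaks of the locus was 25300, 29590 and 3780 in WT, against 82893, 28926 and 29917 in KO. KO replicate 1 was the only library in which promoter, gene and downstream flank fused into one peak, from -8013 to 11913 bp. A second block, between 5600 and 12383 bp downstream of the TSS, was called apart from the gene in each of the other 5 libraries, including WT replicate 3 (6311 to 7293 bp). The peak of WT replicate 3 at the gene itself began 178 bp downstream of the TSS, beyond the 100 bp that the promoter window extends, so the body was called there and the promoter was not.

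Neurog3 (ENSMUSG00000044312, chr10:62133090-62134763, plus strand), the neurogenin of pancreatic endocrine progenitors, held peaks of 9414, 8012 and 1147 bp in WT and, for the widest, 10893, 8374 and 7362 bp in KO. Total signal at the locus was 39032, 31550 and 3466 in WT, against 59587, 53352 and 22835 in KO. The KO value was above the WT value in every same-numbered pair, though the ranges of the genotypes overlap. Maximum signal did not follow this order, at 12, 12 and 6 fragments in WT, against 11, 12 and 8 in KO. The gene lies inside Fam241b, which is read from the other strand, and a peak was called in the body of Fam241b in all 6 libraries, so the mark belongs to both annotations.

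Neurod1 (ENSMUSG00000034701, chr2:79452521-79456751, minus strand), needed for differentiation of neurons and of insulin-producing beta cells, had no peak in WT replicate 3. In WT replicate 1 the locus held a peak from -4271 to -1197 bp and one from 995 to 2953 bp, with the TSS between them, and KO replicate 3 repeated this layout from -4305 to -1182 bp and from 768 to 2841 bp. WT replicate 2 also had 2 peaks, but the one over the gene reached past the TSS to -1048 bp. In KO replicates 1 and 2 both blocks were joined into one peak of 7417 and 6964 bp. Total signal at the locus was 19879 and 26590 in WT replicates 1 and 2, against 39322, 23986 and 18526 in KO. The TSS-proximal stretch was thus missed in 1 library of each genotype that had peaks, and the printed CpG-rich promoter falls in that gap. The same bases belong to Cerkl on the same strand and to the lincRNA Gm26755 on the other, each called in 5 libraries.

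Neurod2 (ENSMUSG00000038255, chr11:98325415-98329648, minus strand), a late factor of cortical neurons, carried the widest peak of the 9 genes. Its widest peak was 19000 and 27827 bp in WT replicates 1 and 2, against 25053, 11968 and 3085 bp in KO replicates 1, 2 and 3. Total signal at the locus was 76174 and 115047 in WT, against 113171, 79187 and 23943 in KO. These sums take whole peaks that touch the locus. Over the whole region called in any library (chr11:98310480-98341090), the totals were 104750, 115047 and 3456 in WT, against 113171, 101991 and 46253 in KO. The widest peaks held ranks 28 and 15 by total signal in WT replicates 1 and 2 and rank 24 in KO replicate 1, at 6.16, 9.11 and 8.10 times the median peak of the library. In KO replicates 2 and 3 the widest peak held ranks 92 and 400, at 4.46 and 1.62 times the median. WT replicate 3 had no peak at the promoter or gene, but a weak one of 1480 bp from 6220 to 7699 bp, within the domain called by the other libraries.

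Atoh1 (ENSMUSG00000073043, chr6:64729125-64731245, plus strand), the factor of cerebellar granule cells, inner ear hair cells and secretory cells of the gut, was the opposite case. Its peak was 3091 and 3504 bp wide in WT replicates 1 and 2, against 3468, 3557 and 3456 bp wide in KO. Total signal was 14079 and 13926 in WT, against 16177, 15170 and 14285 in KO, and maximum signal 9 and 8 fragments in WT, against 13, 10 and 10 in KO. The 5 peaks began between -1817 and -1276 bp and ended between 1677 and 1859 bp, so both edges varied by less than 1 kb. By total signal they stood at percentiles 54.9 to 60.8 of their library in the replicates of 75 bp and at percentile 72.9 in KO replicate 3, or 1.10 to 1.37 times its median peak. WT replicate 3 had none at the gene.

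A separate block lay downstream of Atoh1, on the side where the known autoregulatory enhancer of the gene is found, at chr6:64731827-64737566 (2702 to 8441 bp from the TSS). It was called in all 3 WT libraries and in KO replicates 1 and 3, but not in KO replicate 2. WT replicate 3 thus held a peak of 1289 bp with a total signal of 4498 in this block while having none over the gene. The total signal there was 11446 and 12681 in WT replicates 1 and 2, against 18675 and 8093 in KO replicates 1 and 3. The genotypes overlapped, and no test was made at this block, since a signal is known only where a peak was called.

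Olig2 (ENSMUSG00000039830, chr16:91225457-91228677, plus strand), required for motor neurons and oligodendrocytes, lay in a marked interval that extended downstream, towards Olig1 on the same chromosome. Its widest peak was 3775, 21452 and 1668 bp in WT, against 12409, 14927 and 4554 bp in KO, for replicates 1, 2 and 3. Total signal at the locus was 33652, 104592 and 3887 in WT, against 59322, 84181 and 30890 in KO. These sums take whole peaks that touch the locus, so they shift with how the domain is split. Over the whole region called in any library (chr16:91210543-91240006), the totals were 88213, 127942 and 3887 in WT, against 113118, 91789 and 47472 in KO. WT replicate 1 broke the locus into 3 peaks, with a gap between 316 and 1711 bp inside the gene. The call in WT replicate 3 rested on a peak from -6224 to -4557 bp, which entered the promoter window by 444 bp and did not reach the gene. With an overlap of at least 500 bp required, it was lost.

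Olig1 (ENSMUSG00000046160, chr16:91269772-91271933, plus strand), a partner of Olig2 in oligodendrocyte maturation, had no peak in WT replicate 3. Its locus held 3 and 2 peaks in WT replicates 1 and 2 but 1 in each KO library, which began between -3918 and -3640 bp in all 3. Total signal over the locus was 47393 and 71965 in WT replicates 1 and 2, against 33934, 30953 and 23138 in KO, so the KO values did not overlap those 2 libraries, although they lie above the empty WT replicate 3. The WT sums include peaks of 6657 and 44114 that reached into the window from upstream. Without its upstream peak, WT replicate 2 would keep a peak of 27851, below the KO values of 33934 and 30953. The separation thus rests on these upstream peaks. That upstream block, chr16:91255575-91265071, lies from -14197 to -4701 bp and was called in replicates 1 and 2 of both genotypes and in neither library of 50 bp. Its summed total signal was 24300 and 44114 in WT, against 13810 and 18016 in KO. The block counts towards Olig1 through its WT peaks alone, which entered the promoter window while the KO peaks stopped short of it, so its values are a description that the choice of the block favours.

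Olig3 (ENSMUSG00000045591, chr10:19356533-19358604, plus strand), a factor of dorsal neural tube and hindbrain progenitors, had no peak in WT replicate 3. The peak at the locus was 11080 and 5409 bp wide in WT replicates 1 and 2, against 5883, 10474 and 3500 bp wide in KO, with total signals of 48068 and 25431 in WT, against 34438, 47916 and 12246 in KO. A block downstream of the gene was separate in WT replicate 2, KO replicate 1 and KO replicate 3 and was joined to the gene in WT replicate 1 and KO replicate 2. In KO replicate 3 neither block touched the gene, which was left bare from -969 to 3364 bp.

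**Figure D2:**
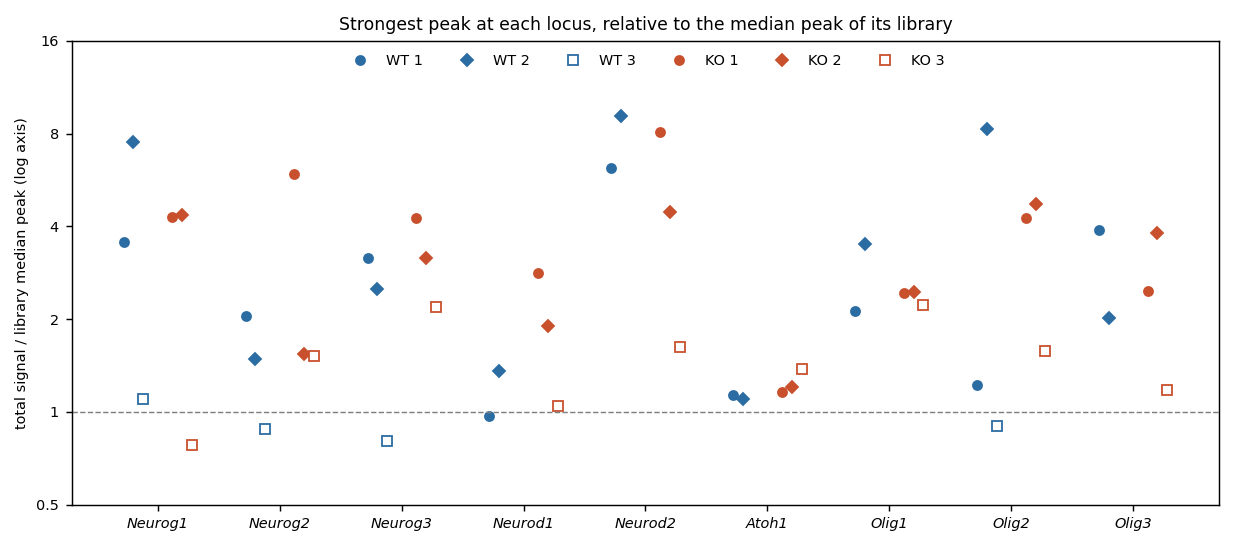
Total signal of the strongest peak at each locus divided by the median peak of the same library, on a log axis, with WT in blue, KO in red, filled symbols for 75 bp and open symbols for 50 bp reads. Neurod2 reaches 9.11 times the median and the 5 points of Atoh1 stay between 1.10 and 1.37; members with no peak in WT replicate 3 have no point for it.

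Peak strength was also set beside that of other promoters. Ranked by total signal among all peaks of a library, the median of the peaks at the member loci stood at percentile 60.3, 82.3 and 30.1 in WT replicates 1, 2 and 3 and at percentile 96.3, 81.9 and 72.9 in KO replicates 1, 2 and 3. The corresponding medians over all promoter peaks were 59.8, 61.9 and 54.1 in WT, against 60.6, 60.6 and 53.4 in KO. The median of the member peaks was above that of promoter peaks in 5 libraries, in WT replicate 1 by little, and below it in WT replicate 3. Since the members were chosen with results of these data known, this is a description, and no test was made. Member peaks include those over the gene body alone. Their medians rest on as few as 4 peaks in WT replicate 3 and 9 in KO replicate 1. The peaks were counted as called, and a domain split into pieces lowers its median.

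Whether the KO changed the length of the mark was asked with the covered length, the bases of promoter window plus gene body under peaks, which is defined also where no peak was called. At Neurog1 it was 6686, 6686 and 1731 bp in WT, against 6686, 6686 and 1792 bp in KO, or 5034 ± 2861 bp against 5055 ± 2826 bp (SD, n = 3). At Olig2 it was 6327, 8221 and 444 bp in WT, against 8221, 6974 and 7835 bp in KO, or 4997 ± 4055 against 7677 ± 638 bp. At Atoh1 it was 3091, 3504 and 0 bp in WT, against 3468, 3557 and 3456 bp in KO, or 2198 ± 1915 against 3494 ± 55.2 bp. The WT spread was set by replicate 3 in each case.

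At Olig1, 5744, 5808 and 0 bp were covered in WT, against 6080, 6025 and 5802 bp in KO, so that the lowest KO value lay 6 bp under the highest WT value. At Neurog2 the values were 3966, 5598 and 1494 bp in WT, against 7497, 5154 and 5046 bp in KO, and at Neurog3 6296, 6653 and 1147 bp against 6674, 6094 and 6674 bp. Neurod1 had 5034, 8043 and 0 bp in WT, against 7417, 6964 and 5198 bp in KO. Each of these loci overlapped between genotypes.

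The remaining values were 9234, 9234 and 0 bp in WT against 9234, 7829 and 3642 bp in KO at Neurod2, and 7046, 5409 and 0 bp against 5883, 5908 and 3500 bp at Olig3. No member had groups that did not overlap, whereas 1.59% of the 3847 genes tested did so with more coverage in KO. This count depends on the libraries used: with WT replicate 2 left out it was 5 members, against 8.79% of genes with a peak. The exact two-sided permutation test gave p values from 0.2 (Olig1) to 1 (Neurog1 and Neurod2), every adjusted p was 1, and 0 members had an unadjusted p under 0.05. With 3 libraries against 3 the smallest p possible is 0.1, so this design could not reach 0.05 for any gene.

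The mean was longer in KO for 9 of 9 members, against 66.3% of all genes tested. Without WT replicate 3 it was longer in KO for 5 of 9, against 35.2%. The KO minus WT difference then moved from 2679 to 403 bp at Olig2, from 2118 to 193 bp at Olig1, from 1295 to 196 bp at Atoh1, from 2213 to 1117 bp at Neurog2 and from 1782 to 6.17 bp at Neurog3. At the other 4 members it changed sign, from 20.3 to -1631 bp at Neurog1, from 2167 to -12.2 bp at Neurod1, from 746 to -2332 bp at Neurod2 and from 945 to -1131 bp at Olig3. This direction followed the 50 bp pair: KO replicate 3 covered more than WT replicate 3 at all 9 loci, by 61 to 7391 bp. Within the 4 libraries of 75 bp the mean was longer in KO for 5 members, longer in WT for 3 (Neurog3, Neurod2 and Olig3) and equal at Neurog1, where every base was covered in all 4. Of the 3825 protein-coding genes with a peak in these libraries, 54.6% were longer in KO. Atoh1 and Olig1 were the 2 members of 9 with more coverage in KO in 3 of 3 same-numbered pairs, by 53 to 3456 bp and by 217 to 5802 bp, against 12.2% of all genes tested. For these the exact sign-flip test over pairs gives p = 0.25, the smallest it can give.

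**Figure D3:**
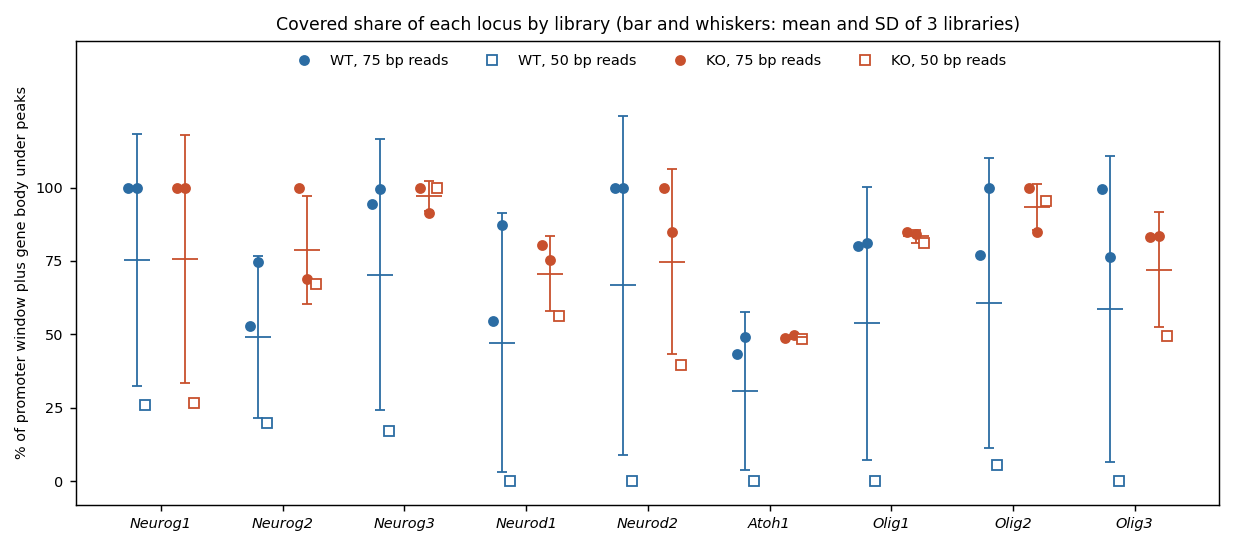
Share of the promoter window plus gene body under peaks (%, y axis) for each member, WT in blue and KO in red, with filled circles for libraries of 75 bp and open squares for 50 bp, and a bar with whiskers for the mean and SD of 3 libraries. The open blue squares, WT replicate 3, lie between 0 and 25.9% and the filled symbols of both genotypes between 43.4 and 100%.

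Signal was compared where every library had a peak. Of 717 merged regions called in all 6 libraries, 5 overlapped members, and log2 total signal was centred on the median of each library over those regions. The KO minus WT difference (± SE, n = 3 per genotype) was -0.14 ± 0.43 at Neurog1, 0.53 ± 0.34 at Neurog2, 0.69 ± 0.35 at Neurog3, 0.55 ± 0.56 at Neurod2 and 0.49 ± 0.52 at Olig2. None passed in limma, with an adjusted p of 0.992 for each. Scaled instead by the summed total signal of each library, the differences were -0.38, 0.29, 0.44, 0.31 and 0.25 in the same order, with an adjusted p of 0.996 in limma. That scaling moved the median difference of all 717 regions from -0.02 to -0.26, and no member changed direction. Across all regions 0% passed (0 of 717), and 4 were higher and 4 lower at an unadjusted p under 0.05. The 95% intervals reached from -1.08 to 0.80 at Neurog1 and from -0.09 to 1.46 at Neurog3, and both thus include a difference of 1 log2 unit. With same-numbered libraries fitted as pairs, the interval at Neurog3 ran from 0.02 to 1.35, with an adjusted p of 0.904 in limma. The intervals of the other members in that fit included 0.

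The centred values show which libraries carry these numbers. Neurod2 was at 1.97, 1.75 and -0.43 in WT, against 1.63, 1.78 and 1.53 in KO, and Olig2 at 1.73, 1.90 and -0.26 in WT, against 1.63, 1.63 and 1.56 in KO. At both genes, KO libraries fell within the range of WT and WT replicate 3 lay far below. In WT replicate 3 neither gene body held a peak. Its value at Neurod2 rested on a peak from 6220 to 7699 bp downstream of the TSS. At Olig2 it rested on a peak that entered the promoter window by 444 bp. Without WT replicate 3 the difference was -0.21 at Neurod2 and -0.20 at Olig2. Neurog3, at 0.55, -0.12 and -0.43 in WT, against 0.70, 0.85 and 0.51 in KO, kept the KO values close together, and 2 of 3 lay above all WT values. Its difference was -0.05 by the mean signal per covered base and -0.23 by the maximum signal, so the larger total was not matched by a larger mean or maximum.

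In the 4 libraries of 75 bp, 2554 regions were called throughout and all 9 members had at least 1. The KO minus WT differences (± SE, n = 2 per genotype) were -0.32 ± 0.32 at Neurog1, 0.40 ± 0.36 at Neurog2, 0.57 ± 0.36 at Neurog3, 0.31 ± 0.33 at Neurod1, -0.14 ± 0.31 at Neurod2, 0.05 ± 0.33 at Atoh1, -0.17 ± 0.31 at Olig2 and 0.29 ± 0.37 at Olig3. At Olig1 the difference was -0.40 ± 0.33 over the gene and -1.17 in the upstream block, from 0.48 and 0.93 in WT to -0.76 and -0.16 in KO on the centred scale. No test is given for that block, which was included through its WT peaks. Over all 2554 regions, 45 were higher and 74 lower at an unadjusted p under 0.05 and 0 after adjustment.

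**Figure D4:**
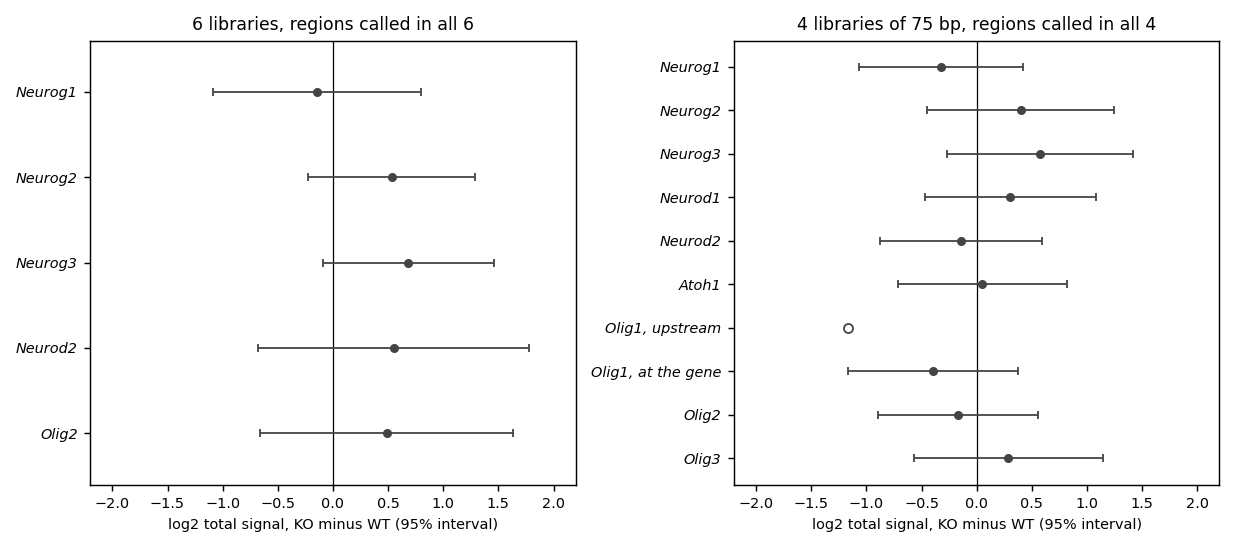
Difference in log2 total signal, KO minus WT, with 95% intervals from limma (x axis) for the regions of the members, in 6 libraries (left) and in the 4 libraries of 75 bp (right). The open circle, at -1.17, is the block upstream of Olig1, drawn with no interval because its WT peaks alone brought it in; the intervals shown include 0, and Neurod2 and Olig2 change side between the panels.

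The sequence around the start sites was compared as a property that the choice of members had not used. The 2 kb centred on the TSS held 62 CpG dinucleotides at Neurod1, 78 at Olig3, 82 at Neurod2, 89 at Neurog3, 97 at Olig2, 111 at Atoh1, 132 at Olig1, 137 at Neurog1 and 164 at Neurog2. The median of the members was 97, against 61 for all protein-coding genes, 92 for the 1871 genes called in all 4 libraries of 75 bp and 55 for the 18469 called in none. Members thus spanned percentiles 50.1 to 96.3 of all genes, and their median was near that of other marked genes. In the 300 bases of RefSeq the order differed: Neurog2, highest over 2 kb, had 10 CpG dinucleotides, and Neurod1, lowest over 2 kb, had 26. Neurod2, with the widest peak of all, had fewer over 2 kb than Atoh1, with its short one.

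**Figure D5:**
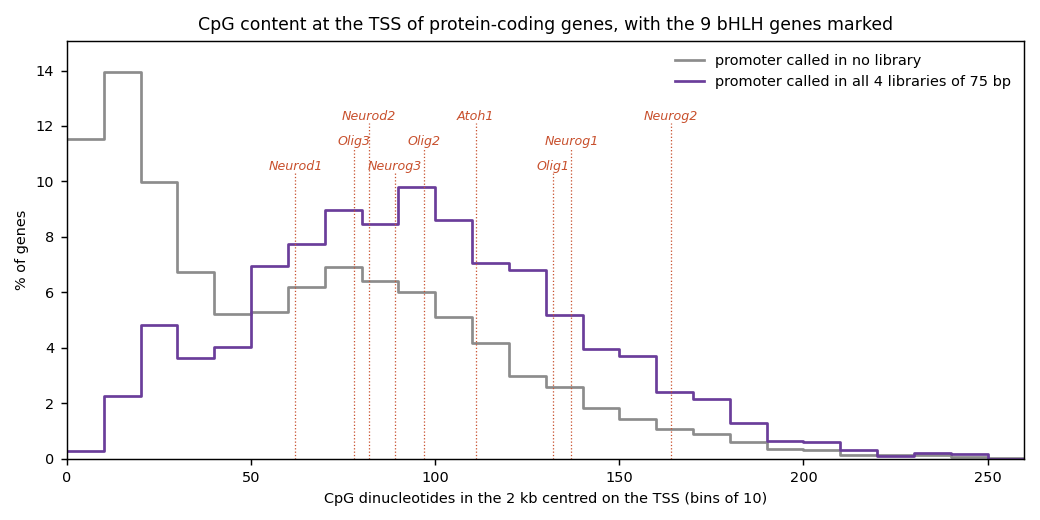
CpG dinucleotides in the 2 kb centred on the TSS (x axis, bins of 10) as the percentage of genes whose promoter was called in no library (grey) and in all 4 libraries of 75 bp (purple), with the members marked. The 9 genes lie between 62 (Neurod1) and 164 (Neurog2).

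The E-box CANNTG, which reads the same on both strands, occurred in 5 of the 8 member promoters with a sequence (62.5%), against 68.4% of all 16522 promoters of this length. Its forms CAGATG or CATCTG, favoured by neurogenin and Neurod dimers, occurred in 1 (Neurod2), against 2398 of the 16522 promoters, and CAGCTG in 1 (Neurog3), against 2519. These forms are contained in the count of CANNTG. The members shared a gene structure as well: all 9 had a single coding exon, against 15.8% of all protein-coding genes and 9.73% of the genes called in all 4 libraries of 75 bp.

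Related genes were counted from lists. Of 9 other neural bHLH genes, 7 had a promoter peak in at least 1 library, 5 in all 4 libraries of 75 bp, 4 in all 3 KO and 1 in all 3 WT libraries. The shares of all protein-coding genes were 15.8%, 8.53%, 7.12% and 3.01%, in the same order. Bhlhe22 was called in 6 libraries and Bhlhe23 in 5, while Neurod4 and Neurod6, paralogues of Neurod1 and Neurod2, had no promoter peak. Nhlh1 was called at the promoter in KO replicate 1 alone. Neurod1 and Neurod2 themselves were called in 5 libraries each.

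Of 10 target and differentiation genes of the proneural factors, 7 had a promoter peak in at least 1 library, 6 in all 4 of 75 bp, 5 in all 3 KO and 3 in all 3 WT libraries. Dll1, the Notch ligand that neurogenins induce, and Ebf2, a factor of neuronal differentiation, were called in all 6, and Dcx and Elavl4, of migrating and maturing neurons, in none. Of 8 partners and inhibitors of bHLH factors, 5 had a peak in at least 1 library, 1 in all 4 of 75 bp, 2 in all 3 KO and 0 in all 3 WT libraries. For both lists, the shares of all protein-coding genes were 15.8%, 8.53%, 7.12% and 3.01%, in the same order. Hes5, a Notch-driven repressor of proneural genes, and Id2, which sequesters E proteins, were called in 4 libraries each, and Id1 and the E protein gene Tcf12 in none. Calls in all 4 libraries of 75 bp thus numbered 9 of 9 for the proneural and Olig genes, 5 of 9 for the other neural bHLH genes, 6 of 10 for the targets and 1 of 8 for the partners. Among all protein-coding genes the share was 8.53%, and 1 of 8 does not set the partners apart from it.

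The genes whose coverage across the 6 libraries was most like the median of the members were Hoxa13, Cryba2, Prph, Foxd3 and Foxq1. Likeness was the root-mean-square difference of log2(covered bp + 100) over the 6 libraries, which ran from 0.11 for Hoxa13 to 0.15 for Foxq1. All 5 had no covered base in WT replicate 3. The median of the members was also 0 bp there, so the choice by likeness favours this. Hoxa13 had 6254 and 7354 bp in WT replicates 1 and 2, against 6297, 7049 and 5148 bp in KO. Among the members themselves, Olig1 was the closest to this median, at 0.14, and Neurog1 the farthest, at 1.81, with 1731 bp in WT replicate 3 and 1792 bp in KO replicate 3.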

How the data were processed

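H3K27me3 CUT&Tag was analysed in 3 WT and 3 KO libraries. Per the labels and the study's methods, the authors trimmed reads (Trim Galore 0.6.6), aligned them to GRCm38 (Bowtie2 2.4.4), removed multi-mapped reads, MAPQ under 20 and duplicates, called peaks per library with SEACR 1.3 (stringent, top 0.5%, no IgG control) and removed blacklisted regions. The deposited files give each peak's total signal and maximum signal, unscaled, so values rise with depth. Read totals per library were not used here. Gene models were GENCODE M21. An overlap of 1 bp counted. Regions were merged over libraries, and covered length was tested by exact permutation and signal with limma 3.58.1 (R 4.3.3), with Benjamini-Hochberg adjustment over all genes or regions and a threshold of 0.05. Same-numbered WT and KO libraries deviated together over 717 regions (r = 0.272, 0.314 and 0.469), so by the rule used here (every r over 0.1) the numbers pair the libraries. Differently numbered libraries gave r from -0.442 to 0.268, the highest for WT replicate 2 with KO replicate 1, and read length changes with the number, so the pairing is a hint from the data. The labels do not give it.

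Members and lists were chosen with earlier results of these data known. All 9 members were named; of a list at most 4 genes with the most and the fewest calls, besides any called in a single genotype; and the 5 genes nearest the members' median coverage. Alternatives were other promoter windows, overlaps, peak thresholds, scalings, read lengths and left-out libraries. Promoter sequences are from RefSeq (8 of 9 members matched; all but Olig1).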

Additional observations from a re-analysis of the deposited data

How the results depend on the processing

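Member calls depended on the threshold and on WT replicate 3. With the same number of top peaks in each library, 1 member was called in all 3 WT, 5 in all 3 KO and 3 in all 4 libraries of 75 bp, against 1.26, 1.92 and 1.89% of all genes. Above the library median it was 1 for WT (all genes 1.35%), and with a 500 bp overlap 0 (2.45%). Leaving out one library gave 2 to 9 for WT, with 9 without WT replicate 3 (9.74% of all genes). Members whose coverage did not overlap between genotypes numbered 1 with peaks joined within 1 kb (1.69% of the genes with a peak). With 75 bp libraries only there was 1 (15.7%). With 1 library left out there were 0 to 5: 5 without WT replicate 2 (8.79%), 1 without KO replicate 2 (3.36%) and 1 without KO replicate 3 (15.6%). With the replicate block, that is, all 3 pairs in the same direction, there were 2 (12.2%). All of these members were longer in KO, and the coverage shares count genes longer in KO. Of 36 differences in covered length under other settings, without the block, which leaves a mean difference as it is, 30 kept their direction, 5 reversed and 1 became 0, and 47 of 54 kept it with one library left out. The reversed ones were Neurog1 at -577 bp with equal numbers of peaks and -577 bp above the median, and with 75 bp libraries Neurog3 at -90.5, Neurod2 at -702.5 and Olig3 at -332 bp. One library left out gave -1631 to 1652 bp at Neurog1, -12.2 to 4009 bp at Neurod1, -2332 to 2376 bp at Neurod2 and -1131 to 2393 bp at Olig3, the lowest each time without WT replicate 3.

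In limma, 0 regions passed under every alternative run, the replicate block included (0 of 717, with 8 higher and 17 lower at an unadjusted p under 0.05). Signal reversed at Neurog3 (-0.052 per covered base, -0.23 by maximum), Olig2 (-0.059 by maximum, -0.17 at 75 bp), Neurod2 (-0.14 at 75 bp) and Neurog1 (0.079 with regions of at least 3 libraries). With one library left out it ran from -0.56 to 0.16 at Neurog1, from -0.21 to 0.996 at Neurod2 and from -0.20 to 0.88 at Olig2, lowest without WT replicate 3 at all 3, from 0.35 (without KO replicate 3) to 0.79 (without KO replicate 2) at Neurog2, and from 0.48 (without WT replicate 3) to 0.97 (without WT replicate 1) at Neurog3. The cause of these reversals was not tested. Maximum signals of 6 to 10 fragments at a median peak limit the precision of any locus.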

Other observations

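Blocks of the mark also lay beyond the promoter windows and gene bodies, within 15 kb of the loci. Downstream of Neurog1, a block at chr13:56232622-56237175 was called in WT replicate 2 and KO replicate 2, inside the lincRNA 4930550C17Rik (chr13:56222224-56243940, minus strand), whose promoter was called in 4 libraries. Upstream of Neurod2, chr11:98341274-98343529 was called in KO replicates 1 and 2 and in no WT library, with total signals of 7001 and 8649, or 0.501 and 0.685 times the median peak of the library. In WT replicates 1 and 2 the peak over Neurod2 ended at -11413 and -11442 bp, close to where that block begins at -11626 bp. Downstream of Olig2, chr16:91240731-91248626 was called in WT replicate 2 and KO replicate 2, the same-numbered libraries. These blocks were noticed after the values were seen, and no test was made of them.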
